A study of Papio anubis with 28 samples.

Results

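The immediate early response genes examined here are FOS, FOSB, JUN, JUNB, EGR1, EGR3, ATF3, NR4A1, DUSP1 and IER2. They were taken by symbol from the deposited count table, where each symbol had 1 row, and make up 10 of its 27533 genes. All 10 passed the filter on low counts, which left 17177 genes for testing. No measured value entered their choice as a rule, although the list was drawn up with earlier results of these data known.

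Immediate early genes are transcribed within minutes of a stimulus, without the need for new protein. Growth factors, stretch, wounding and cell stress reach their promoters through MAP kinases, serum response factor and CREB, and the transcripts are then removed quickly. FOS and JUN proteins pair into the AP-1 transcription factor, EGR proteins are zinc finger factors, and NR4A1 is an orphan nuclear receptor, so that most products switch on a second wave of genes. Surgical removal and dissociation of a tissue are known to raise the same transcripts, in muscle, stroma and epithelium alike.

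RNA was sequenced from 28 tissue pieces of the urinary bladder of 14 olive baboons (Papio anubis), all labelled as wild type. Each animal gave its native bladder and the tissue grafted into it, so that every native library also comes from an operated bladder. In the Entero arm (5 animals, groups Entero native and Entero ileum) the graft was ileum. In the SIS arm (5 animals, groups SIS native and SIS regenerated) and the PRS arm (4 animals, groups PRS native and PRS regenerated) it was a graft carrying MSC and CD34+ HSPC, bone marrow stromal and haematopoietic progenitor cells. The animal codes of the PRS arm begin with POOC. The labels spell out neither PRS nor POOC and give no age of the animals and no time after surgery, and about 50 mg of whole tissue was used per library, so a change in the number of cells of a type and a change in RNA per cell cannot be told apart.

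Total counts ran from 20975648 to 35669026 per library. Of the markers fixed for each tissue, all 9 intestinal epithelial markers were higher in the Entero ileum group than in Entero native, and 9 of 10 urothelial markers were lower (edgeR quasi-likelihood test, adjusted p under 0.05). The other, KRT20, a keratin that intestinal epithelium also makes, was higher in ileum by 7.45 on the log2 scale (adjusted p = 7.53e-05). Mitochondrial genes took 14.0% to 33.9% of the counts in the Entero ileum libraries and 4.66% to 11.6% in all others. The labels record no time between removal and preservation of the tissue and no sequencing batch. Each arm may differ in these from the others, which cannot be told apart from the type of graft.

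Immediate early transcripts were low in most libraries of the Entero arm and of PRS native. They were high in most SIS regenerated libraries and in PRS regenerated 1 and 3. PRS regenerated 2 and 4 were lower, with summed levels of 1321 and 1534 CPM. Single native libraries of each arm were as high as some regenerated ones. Entero native 3, for example, had a summed level of 2054 CPM against 1321 CPM in PRS regenerated 2. In the comparison with the ileum graft, 7 of the 10 genes were higher in SIS regenerated tissue, beside 10.9% of all tested genes. In PRS regenerated tissue 4 were higher, beside 7.21%. Between graft and native bladder of the same arm no member passed the test in any of the 3 arms. Of all tested genes 15.0% passed in the Entero arm and 0% in the SIS and PRS arms. The sum of the 10 genes ran from 431 to 2054 CPM (read counts scaled to a common, TMM-corrected library total) in Entero native, 477 to 1211 in Entero ileum, 658 to 6883 in SIS native, 2797 to 6387 in SIS regenerated, 922 to 3437 in PRS native and 1321 to 9944 in PRS regenerated.

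**Figure D1:**
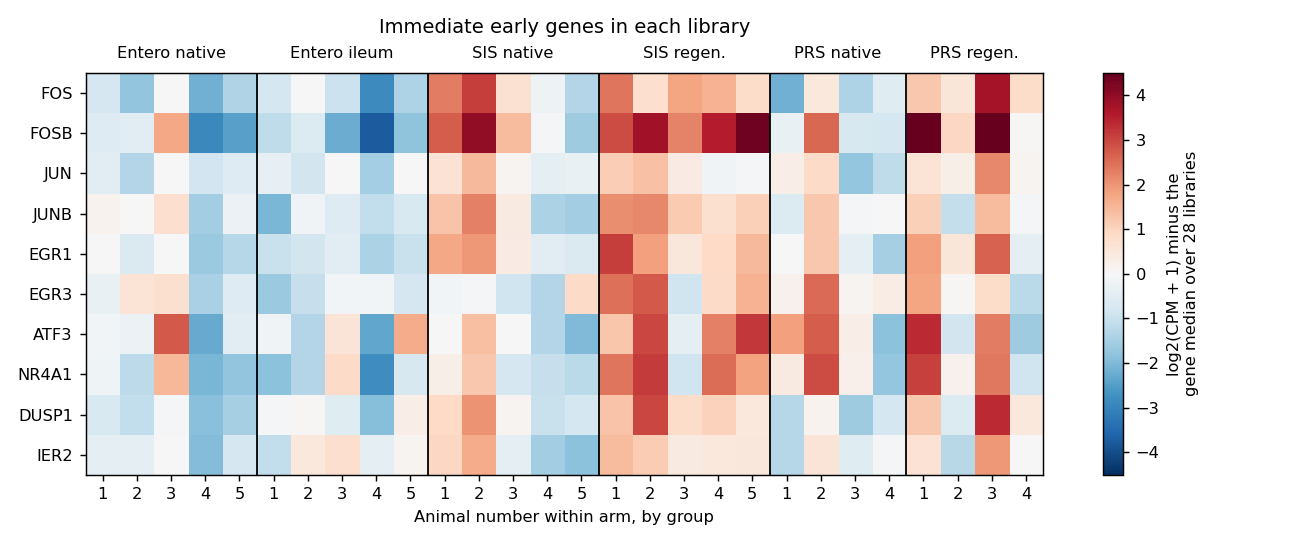
Level of each of the 10 genes (rows) in the 28 libraries (columns, numbered by animal within each arm), as log2(CPM + 1) minus the median of that gene over all libraries, red above and blue below it. Native libraries 1 and 2 of the SIS arm and native library 2 of the PRS arm are red across most rows, as are SIS regenerated 1 and 2 and PRS regenerated 1 and 3, while Entero native 4 and Entero ileum 4 are blue in nearly every row.

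FOS, the partner that gives AP-1 its strong DNA binding, was at 143, 69.3, 237, 53.5 and 94.2 CPM in Entero native animals 1 to 5 and at 138, 247, 122, 32.2 and 92.2 CPM in their ileum grafts. In the SIS arm it was at 1180, 2094, 391, 206 and 96.9 CPM in native bladder and at 1283, 403, 820, 709 and 427 CPM in regenerated tissue. In the PRS arm it was at 53.7, 335, 91.9 and 164 CPM in native bladder and at 565, 352, 3211 and 425 CPM in regenerated tissue. Every regenerated library of both scaffold arms lay above every ileum library. All 4 PRS regenerated libraries also lay above all 4 PRS native ones, the only member without overlap there, beside 0.792% of all tested genes. SIS native and SIS regenerated overlapped across most of their range, since SIS native animals 1 and 2 were as high as the grafts.

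FOSB, a second FOS-family partner in AP-1, was at 21.3, 22.5, 111, 3.46 and 5.10 CPM in Entero native and 14.0, 20.9, 6.13, 1.47 and 8.48 CPM in Entero ileum. It was at 223, 526, 88.1, 31.0 and 10.1 CPM in SIS native and at 256, 458, 155, 391 and 693 CPM in SIS regenerated. In PRS native it was at 25.6, 199, 19.3 and 18.4 CPM, and in PRS regenerated at 1070, 63.1, 995 and 33.7 CPM. All ileum libraries lay below all regenerated libraries of either scaffold, and the PRS regenerated group split into 2 libraries above all of SIS regenerated and 2 below all of it.

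JUN, which pairs with FOS proteins, had group means ± SD of 119 ± 41.0 CPM in Entero native (n = 5), 130 ± 50.4 in Entero ileum (n = 5), 244 ± 146 in SIS native (n = 5), 274 ± 127 in SIS regenerated (n = 5), 168 ± 126 in PRS native (n = 4) and 368 ± 288 in PRS regenerated (n = 4). JUNB, a JUN-family partner that can replace JUN in AP-1, was at 413, 365, 626, 124 and 301 CPM in Entero native and 87.3, 330, 244, 170 and 225 CPM in Entero ileum. It was at 888, 1775, 479, 135 and 125 CPM in SIS native and 1549, 1624, 833, 605 and 775 CPM in SIS regenerated, so the lowest regenerated library lay above 3 of the 5 native ones. In the PRS arm JUNB ran from 241 to 843 CPM in native bladder and from 174 to 990 CPM in regenerated tissue, overlapping throughout.

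EGR1, a zinc finger factor that responds to serum, stretch and injury, was at 72.3, 80.8, 104, 54.1 and 72.1 CPM in the ileum grafts. It was at 1250, 521, 208, 273 and 404 CPM in SIS regenerated and at 518, 213, 912 and 106 CPM in PRS regenerated tissue. No ileum library reached the lowest regenerated one. In native bladder it was at 145, 91.5, 145, 45.0 and 59.6 CPM in the Entero arm, at 486, 558, 189, 104 and 92.9 CPM in the SIS arm and at 145, 342, 107 and 51.3 CPM in the PRS arm. EGR3, a relative of EGR1 that acts downstream of calcium and growth factor signals, was the scarcest member, between 0 and 20.7 CPM over all libraries, and 0 reads were counted in Entero ileum 1, which with 3 counts as the limit allows up to 0.151 CPM (counting error only). Its values were 16.9, 20.7, 0.706, 4.77 and 8.56 CPM in SIS regenerated against 1.97, 2.05, 0.719, 0.287 and 4.82 CPM in SIS native.

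ATF3, a stress-induced relative of the AP-1 proteins, was at 47.7, 161, 13.8, 96.9 and 183 CPM in SIS regenerated and 19.0, 51.2, 19.7, 7.04 and 4.10 CPM in SIS native. In PRS regenerated tissue it was at 208, 10.6, 99.3 and 5.80 CPM, a split into 2 high and 2 low libraries. NR4A1 was at 600, 1003, 59.0, 648 and 391 CPM in SIS regenerated and 133, 263, 65.2, 54.3 and 47.0 CPM in SIS native. SIS regenerated 3 was the low library for both genes, and the other 4 regenerated libraries were above every SIS native library for NR4A1. NR4A1 was at 939, 126, 574 and 59.9 CPM in PRS regenerated and at 147, 861, 130 and 32.9 CPM in PRS native, where animal 2 was high in the native tissue and low in the graft.

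DUSP1, a phosphatase that is induced with these genes and switches MAP kinases off, was at 457, 1492, 326, 382 and 257 CPM in SIS regenerated and 343, 752, 200, 92.3 and 106 CPM in SIS native. It was at 430, 119, 1904 and 255 CPM in PRS regenerated and 75.0, 205, 60.4 and 106 CPM in PRS native. In the Entero arm it ran from 49.5 to 177 CPM in native bladder and from 48.6 to 228 CPM in ileum. IER2, a small nuclear protein of the same early wave, had group means ± SD of 79.4 ± 32.9 CPM in Entero native (n = 5), 128 ± 58.7 in Entero ileum (n = 5), 153 ± 149 in SIS native (n = 5), 216 ± 75.4 in SIS regenerated (n = 5), 105 ± 55.7 in PRS native (n = 4) and 202 ± 178 in PRS regenerated (n = 4). Its groups overlapped in every comparison examined.

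The members varied more within groups than most genes did. The pooled standard deviation of log2(CPM + 1) within groups had a median of 1.07 over the 10 genes and 0.56 over all 17177 tested genes, and it was largest among the members for FOSB (1.78), ATF3 (1.75) and NR4A1 (1.53). JUN had the smallest, 0.80. Within SIS native the highest library exceeded the lowest 21.6-fold for FOS and 52.0-fold for FOSB, against 3.18-fold and 4.47-fold in SIS regenerated. In native bladder the animals coded M had lower member sums than all animals coded F of their arm. These were 431 and 760 CPM against 862 to 2054 in Entero and 658 and 799 against 1714 to 6883 in SIS. In PRS they were 922 and 945 CPM against 1027 and 3437. Grafts did not all follow this order, since PRS regenerated 3, coded M, was highest at 9944 CPM. The order was seen after the fact, and the part of sex was not tested.

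The first comparison set each graft against the native bladder of its arm. In the Entero arm no member passed: 0 of 10 did so by edgeR's quasi-likelihood test at an adjusted p of 0.05, where 15.0% of all tested genes did, and 0 of 10 had an unadjusted p under 0.05, where 28.5% did. DESeq2 called 0 members and 20.2% of genes. The member log2 fold changes ran from -1.68 for FOSB to 0.69 for IER2, with a median of -0.44 beside -0.03 over all tested genes. A difference in these transcripts between ileum and native bladder was not detectable at this spread, and the intervals were wide: that of FOS ran from -1.40 to 1.55 on the log2 scale, and that of FOSB from -3.84 to 0.47.

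In the SIS arm 0 of 10 members passed, as did 0% of all genes, and DESeq2 called 0 members and 0.343% of genes. EGR3, ATF3 and NR4A1 had an unadjusted p under 0.05, all higher in the graft, beside 3.73% of all genes higher at that level. NR4A1 had a log2 fold change of 2.26 (SE 0.92, n = 5 and 5, edgeR quasi-likelihood adjusted p = 0.928, DESeq2 adjusted p = 0.474), EGR3 2.39 (SE 1.02) and ATF3 2.31 (SE 1.06). FOS gave -0.12 (SE 0.72) and JUN 0.16 (SE 0.48). Without SIS regenerated 2, the library with the highest EGR3 and NR4A1, 0 members had an unadjusted p under 0.05, and the median log2 fold change of the 10 genes was 0.68 in place of 0.93.

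In the PRS arm 0 of 10 members passed and 0% of all genes did, with DESeq2 at 0 members and 0.143% of genes. Here a different set had an unadjusted p under 0.05: FOS, FOSB, JUN, EGR1 and DUSP1, all higher in the graft, beside 2.50% of all genes. FOS had a log2 fold change of 2.82 (SE 0.86, n = 4 and 4, edgeR quasi-likelihood adjusted p = 1.00, DESeq2 adjusted p = 0.125) and DUSP1 2.60 (SE 0.78, DESeq2 adjusted p = 0.128). EGR3, ATF3 and NR4A1 gave -0.58, 0.46 and 0.54. Without PRS regenerated 3, which held the highest FOS, JUN, DUSP1 and IER2 of all 28 libraries, 0 members had an unadjusted p under 0.05 and the log2 fold change of FOS was 1.47.

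With the SIS and PRS changes averaged, 0 of 10 members and 0% of genes passed, and DESeq2 called 0 members and 0.288% of genes. All 10 log2 fold changes were positive, from 0.50 for JUNB to 2.10 for FOSB, with a median of 1.26 beside 0.02 over all tested genes. FOS, FOSB, EGR1, NR4A1 and DUSP1 had an unadjusted p under 0.05, beside 4.21% of all genes higher at that level. DUSP1 came closest, at 1.78 (SE 0.51, edgeR quasi-likelihood adjusted p = 0.544, DESeq2 adjusted p = 0.0650). Without PRS regenerated 3 the members with an unadjusted p under 0.05 numbered 2, and without SIS native 2 they numbered 8. Of 67 cell type markers on 9 lists 0 passed in the SIS or the PRS arm by edgeR or DESeq2. By edgeR 0% of all genes passed there either. An unadjusted p under 0.05 was found for 2 and 5 markers, respectively. List means still moved within animals (graft minus native, log2), smooth muscle by -3.78 to 2.00 and urothelium by -3.20 to 3.18 in SIS. In PRS urothelium moved by -3.44 to 0.42. Endothelium was higher in 4 of 4 PRS animals, and macrophage and neutrophil markers in 0 of 4. The part of cell makeup in the member changes was not tested.

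**Figure D2:**
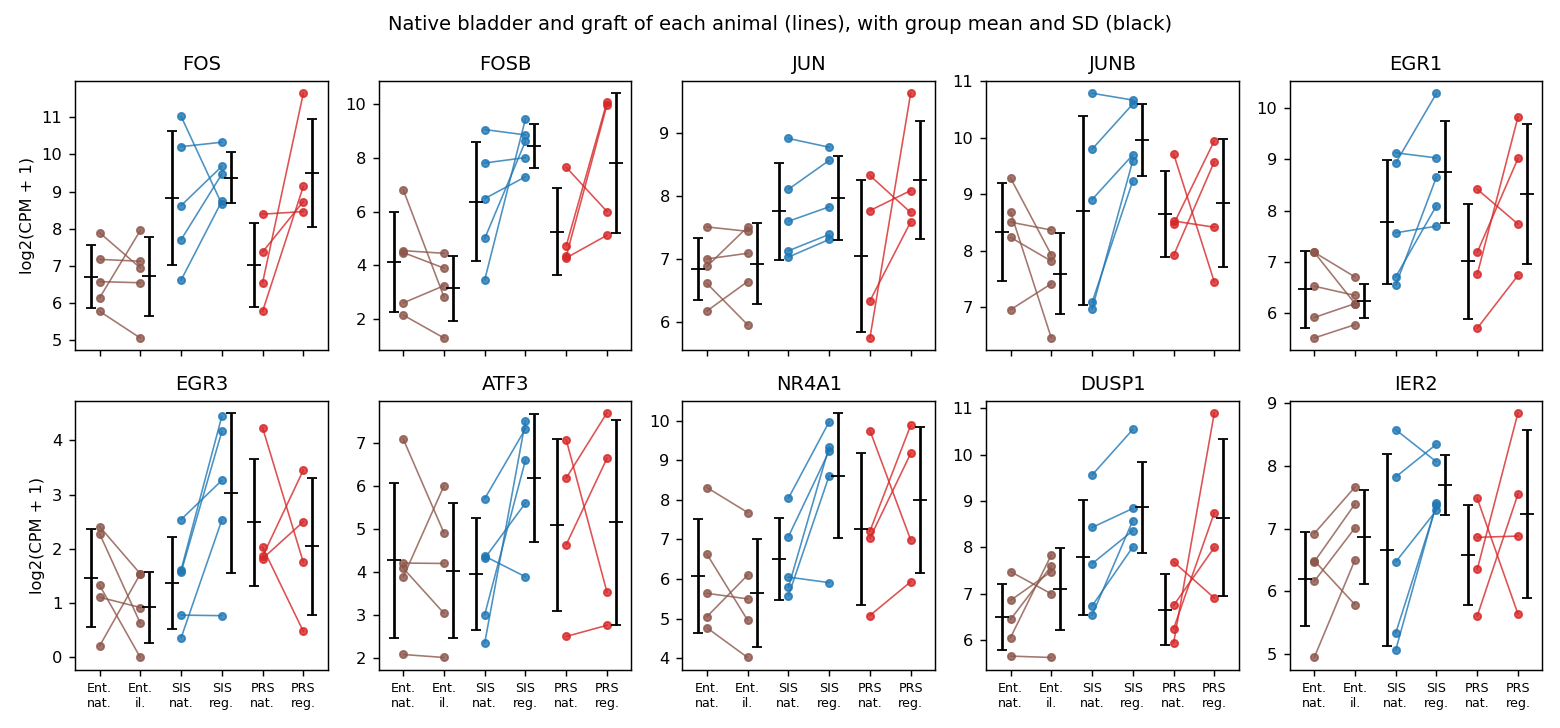
Level of each gene as log2(CPM + 1) in native bladder and graft, with a line for each animal (brown Entero, blue SIS, red PRS; nat. native, il. ileum, reg. regenerated) and black bars for the group mean ± SD. The lines of the SIS arm point up for DUSP1 in 5 of 5 animals and those of the PRS arm for FOS in 4 of 4, while the lines of the Entero arm run in both directions for each of the 10 genes.

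Within animals, DUSP1 was higher in the graft than in the native bladder in 5 of 5 SIS animals, by 0.41 to 2.04 on the log2(CPM + 1) scale, and the other 9 genes were higher in 4 of 5. The graft was higher in all 5 animals for 4.24% of tested genes. The share of genes higher in 4 of 5 was not counted. Members also varied together, so their counts are not independent. FOS was higher in 4 of 4 PRS animals, by 0.07 to 5.11, where 5.52% of genes were higher in all 4. DUSP1 was higher in 3 of 4 PRS animals, so no member was higher in the graft in all 9 animals, beside 0.262% of genes that were. In the Entero arm the number of animals with a higher graft ran from 1 of 5 for FOS, FOSB, JUNB, EGR3, ATF3 and NR4A1 to 4 of 5 for IER2.

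Within an animal the members mostly pointed the same way. All 10 members were higher in the graft in SIS animals 1, 4 and 5 and in PRS animals 1 and 3, with median differences of 0.66, 2.10, 2.23, 1.89 and 2.78, while the median over all tested genes lay between 0.00 and 0.01 in each of these pairs. PRS animal 2 went the other way, with 1 of 10 higher in the graft and a median of -1.74, and its native library was the highest of PRS native for all 10 genes. In SIS animal 2 the count was 4 of 10, in SIS animal 3 it was 7 and in PRS animal 4 it was 8. In Entero animals 1 to 5 it was 2, 4, 1, 4 and 7.

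The difference between the 2 scaffold changes gave 0 of 10 members and 0% of genes past the threshold, with DESeq2 at 0 members and 0.0899% of genes. FOS alone had an unadjusted p under 0.05, at 2.94 (SE 1.10, 95% interval 0.68 to 5.20), a larger change in the PRS arm, beside 2.00% of genes in that direction. With the animal as a block 0 members had an unadjusted p under 0.05. Without PRS regenerated 3 it was also 0, with FOS at 1.60, and DESeq2 gave 1 higher and 1 lower. EGR3 was at -2.96 (95% interval -6.02 to 0.09). The intervals of the 9 members other than FOS contained 0, so any difference between the scaffolds stayed unresolved for them.

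The mean scaffold change minus the Entero change was positive for all 10 genes, from 0.03 for IER2 to 3.78 for FOSB, and 0 of 10 passed, where 7.39% of tested genes did. IER2 turned negative in 15 of 32 alternatives. FOSB was the only member with an unadjusted p under 0.05, beside 11.7% of genes higher at that level: 3.78 (SE 1.33, edgeR quasi-likelihood adjusted p = 0.0829, DESeq2 adjusted p = 0.0179). With the animal as a block 3 members had an unadjusted p under 0.05. DESeq2 called 1 member higher, beside 5.68% of genes. By edgeR it was called without SIS native 2 (4.28, adjusted p = 0.0459) and without PRS native 2 (4.61, adjusted p = 0.0294), and over all alternatives its adjusted p ran from 0.0179 to 0.291.

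**Figure D3:**
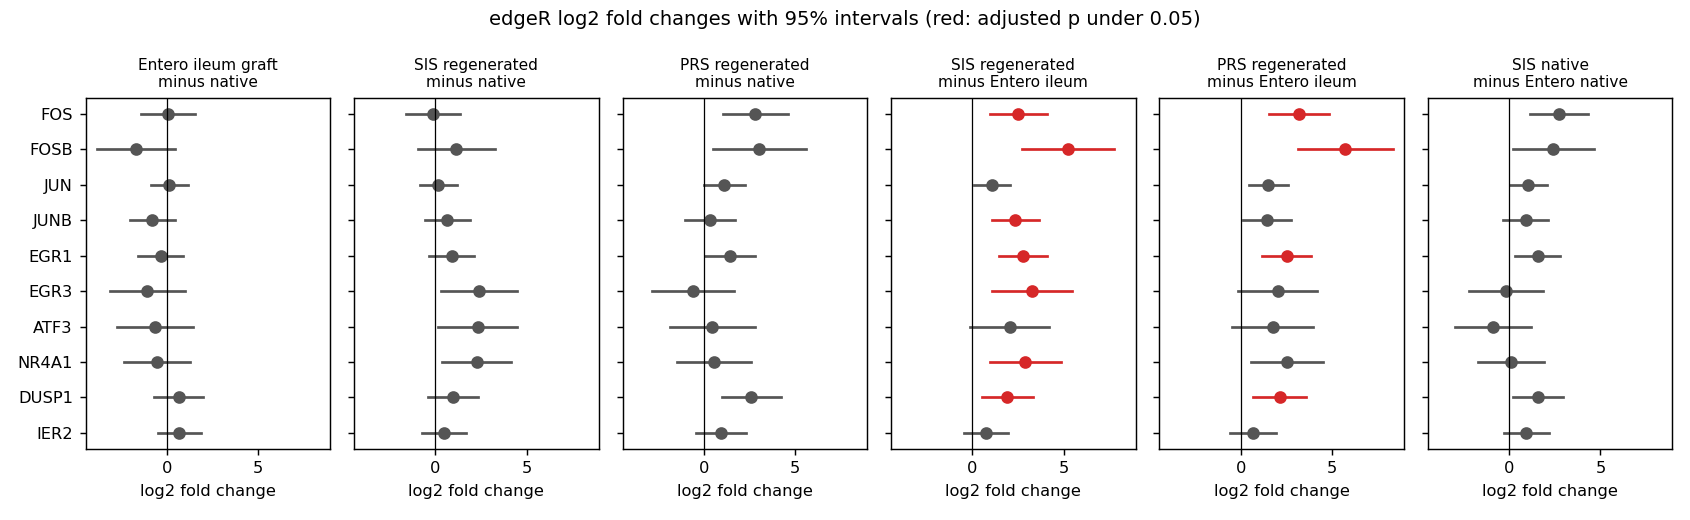
Log2 fold changes of the 10 genes from edgeR (points) with 95% intervals (lines) in 6 comparisons, with calls at an adjusted p under 0.05 in red. Red points appear only in the panels of regenerated tissue against ileum graft, 7 for SIS and 4 for PRS, and every interval of the ileum against native panel crosses 0.

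Regenerated tissue was then compared with the ileum graft. In SIS regenerated tissue 7 of 10 members were higher, beside 10.9% of all tested genes higher, and 0 were lower. DESeq2 called 7 as well, beside 12.5% of genes. FOSB had the largest log2 fold change, 5.26 (SE 1.22, n = 5 and 5, edgeR quasi-likelihood adjusted p = 0.00307). EGR1, with the smallest adjusted p among the members, was at 2.79 (SE 0.63, adjusted p = 0.00254), then JUNB at 2.35 (SE 0.63, adjusted p = 0.00874) and FOS at 2.53 (SE 0.76, adjusted p = 0.0188). EGR3 rose by 3.29 (adjusted p = 0.0284), NR4A1 by 2.90 (adjusted p = 0.0292) and DUSP1 by 1.91 (adjusted p = 0.0449). JUN at 1.08 (adjusted p = 0.119), ATF3 at 2.06 (adjusted p = 0.166) and IER2 at 0.75 (adjusted p = 0.388) did not pass. The groups did not overlap for FOS, FOSB, JUNB, EGR1 and DUSP1, beside 6.24% of all tested genes with every SIS regenerated library above every ileum library.

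FOS, FOSB, JUNB and EGR1 passed in each of the 14 alternatives run for this comparison. The count was 4 without Entero ileum 2, Entero ileum 5 or SIS regenerated 2, where EGR3, NR4A1 and DUSP1 were lost. DUSP1 was lost in 9 of the 14: without each single ileum library, without SIS regenerated 1 or 2, under relative log expression scaling and with no filter on low counts, and its adjusted p ran from 0.0197 to 0.201 over all 14. NR4A1 was lost in 5, also without Entero ileum 1 or 4, and EGR3 in 4, also without SIS regenerated 1.

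In PRS regenerated tissue 4 of 10 members were higher than in the ileum graft, beside 7.21% of all genes higher, and 0 were lower. FOS rose by 3.17 (SE 0.80, n = 4 and 5, edgeR quasi-likelihood adjusted p = 0.00839), FOSB by 5.73 (SE 1.26, adjusted p = 0.00287), EGR1 by 2.51 (SE 0.64, adjusted p = 0.00955) and DUSP1 by 2.13 (SE 0.71, adjusted p = 0.0441). DESeq2 called 6, adding JUN (1.45, adjusted p = 0.0319) and NR4A1 (2.48, adjusted p = 0.0295), beside 9.16% of genes. FOS, FOSB, JUN and EGR1 did not overlap between the groups, beside 5.47% of genes. This comparison leaned on PRS regenerated 3: without it FOSB alone passed, while FOS was at 1.83 (adjusted p = 0.107), EGR1 at 1.87 (adjusted p = 0.0617) and DUSP1 at 0.79 (adjusted p = 0.469). DUSP1 was lost in 9 of 13 alternatives, with adjusted p from 0.0513 up to that value: also with no filter on low counts, with the 2 groups alone, without each single ileum library and without PRS regenerated 1. Without PRS regenerated 4, one of the low libraries, 6 members passed.

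Both comparisons share the 5 ileum libraries, so their results are not independent. They also set bladder tissue against bowel. Of 8 fibroblast markers 6 were higher in SIS regenerated and 3 in PRS regenerated tissue than in ileum, and their summed level ran from 1080 to 6628 CPM in ileum, 5881 to 32650 in SIS regenerated and 3788 to 18702 in PRS regenerated, with none at 0 in any of these groups. Of 10 urothelial markers 9 were higher in either scaffold graft than in ileum, with sums of 496 to 2385, 654 to 7546 and 431 to 3746 CPM, while KRT20 was lower in both. Of 9 intestinal markers all were lower, with sums of 1815 to 13139, 11.3 to 182 and 7.11 to 56.0 CPM. SI, APOA4 and ALPI were at 0 in every SIS regenerated library, and FABP2 as well in every PRS regenerated one. Of 8 smooth muscle markers 0 passed against ileum in either comparison by edgeR, and DESeq2 called 1 higher in PRS regenerated tissue. Of 4 general leukocyte markers 2 were lower in SIS regenerated tissue and 0 in PRS regenerated tissue. The endothelial marker EMCN was higher and the macrophage marker CD68 lower in both scaffold grafts than in ileum, 1 of 7 and 1 of 8 tested, and in SIS regenerated tissue the neutrophil marker S100A9 was higher and the T and natural killer cell marker GZMA lower, 1 of 4 and 1 of 9. The part of this cell makeup, and of the higher mitochondrial share of ileum, in the immediate early differences was not tested. Native bladder was not alike between arms either, though edgeR called no member there. For FOS, SIS native minus Entero native was 2.73, beside 2.53 for SIS regenerated minus ileum and -0.12 for SIS regenerated minus native. For EGR3 and NR4A1 the native values were -0.16 and 0.11, beside 3.29 and 2.90 against ileum. The part of the arm in these differences was not tested.

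PRS and SIS regenerated tissue were not told apart by these genes. By edgeR 0 of 10 members passed, as did 0% of all genes, and 0 of 10 had an unadjusted p under 0.05, where 4.44% of genes did. DESeq2 called 0 members and 0.0809% of genes. PRS minus SIS log2 fold changes ran from -1.25 for EGR3 to 0.64 for FOS, and the interval for FOS ran from -0.91 to 2.20, so differences of either sign remain within the error.

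Native bladder was compared between arms, since the grafts share a bladder with it. In SIS native against Entero native 0 of 10 members and 0% of genes passed by edgeR. FOS, FOSB, JUN, EGR1 and DUSP1 had an unadjusted p under 0.05, all higher in SIS native, beside 0.687% of all genes higher at that level. FOS had a log2 fold change of 2.73 (SE 0.76, n = 5 and 5, edgeR quasi-likelihood adjusted p = 0.703). DESeq2 called FOS (adjusted p = 0.0347) and no other member, beside 0.0412% of genes. The groups overlapped for every member, whereas 0.274% of genes had every SIS native library above every Entero native one. SIS native animals 1 and 2 held the highest values of the group for 8 of the 10 genes, and without SIS native 2 the members with an unadjusted p under 0.05 numbered 1 and FOS gave 1.97. Of 4 general leukocyte markers 0 passed and 4 had an unadjusted p under 0.05, all lower in SIS native (0 by DESeq2), with sums of 400 to 902 CPM against 653 to 4033 in Entero native and none at 0. Of 4 tested neutrophil markers 2 lay under 0.05 before adjustment, both lower in SIS native, with sums of 3.15 to 90.0 CPM against 111 to 373 and S100A12 at 0 in SIS native and MMP8 in Entero native. Of 9 intestinal epithelium markers 5 were lower before adjustment, of which DESeq2 called 3, with sums of 6.06 to 168 CPM against 42.3 to 203, CDX2 and ALPI at 0 in SIS native and ALPI in Entero native. Of 8 smooth muscle markers 0 had an unadjusted p under 0.05. Over all 67 cell type markers 14 did and 0 passed, and not all of the 14 are listed here. The part of cell makeup in these native differences was not tested.

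In PRS native against Entero native 0 of 10 members and 0% of genes passed, 0 of 10 had an unadjusted p under 0.05 beside 2.15% of genes, and DESeq2 called 0 members and 0.164% of genes. All 10 log2 fold changes were positive, from 0.18 to 1.56, but 7 of them turned negative without PRS native 2. In PRS native against SIS native 0 of 10 members and 0% of genes passed, and DESeq2 called 0 members and 0.572% of genes. FOS was the only one with an unadjusted p under 0.05, at -2.30 (SE 0.82, 95% interval -3.98 to -0.62), beside 2.83% of genes lower at that level. Without SIS native 2 the count was 0 and FOS was at -1.54, and without PRS native 2 it was 4. Of 67 cell type markers 0 passed and 13 had an unadjusted p under 0.05. Among these, 4 of 4 general leukocyte markers (sums 665 to 4637 CPM against 400 to 902), 4 of 9 T and natural killer cell markers (46.4 to 328 against 14.4 to 96.2) and 1 of 4 neutrophil markers were higher in PRS native. The other 4 were 4 of 8 fibroblast markers, lower in PRS native (2440 to 8586 against 9737 to 19244), and the part of cell makeup was not tested here either.

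The members varied together from library to library. After the group means were taken out, the 45 pairs of members had Pearson correlations of log2 CPM from 0.15 to 0.96 over the 28 libraries, with a median of 0.70, all positive. These are descriptions across libraries that share groups, arms and depth. JUNB and IER2 were the closest pair (0.96), followed by ATF3 and NR4A1 (0.88) and FOS and IER2 (0.83), and FOS and EGR3 were the least alike (0.15). Entero native 4 held 10 of the 10 genes among its 5 lowest libraries and Entero ileum 4 held 8, while SIS regenerated 2 held 9 and SIS regenerated 1 held 8 among the 5 highest.

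The balance between members still differed between libraries. The ratio of FOS to NR4A1 reads, compared here between libraries and not between genes, was 8.87 and 7.98 in SIS native 1 and 2 and 0.366 and 0.389 in PRS native 1 and 2. In SIS regenerated tissue it was 2.14, 0.402, 13.9, 1.09 and 1.09. The ratio of FOSB to FOS reads was 1.14 in SIS regenerated 2, 1.62 in SIS regenerated 5 and 1.89 in PRS regenerated 1, and it was below 1 in the other 25 libraries. PRS regenerated 1 and 3, both high in the sum of the members, differed in this balance: FOS over ATF3 reads was 2.71 in the first and 32.3 in the second.

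Genes outside the 10 members that were most like each member over the 28 libraries were found by the same correlation. Other members, which stood closer in some cases, were left out of these ranks. ZFP36, which encodes tristetraprolin, a protein that marks short-lived messages for decay, ranked first for FOS (0.77), FOSB (0.86), JUNB (0.90), DUSP1 (0.92) and IER2 (0.90). HBEGF, a membrane-bound growth factor ligand of the EGF receptor, ranked first for JUN (0.74) and EGR1 (0.84). EGR2, another EGR factor, ranked first for EGR3 (0.81), ITPKC, an inositol trisphosphate kinase, for ATF3 (0.84) and MAFF, a small MAF leucine zipper factor, for NR4A1 (0.90). Behind ZFP36 came C5orf38 and CLDN4 for FOS (both 0.77), TRIB1 (0.86) and ELF4 (0.81) for FOSB, and SFN (0.87) and PHLDA2 (0.85) for JUNB. For DUSP1 these were CHMP1B (0.81) and SH3RF1 (0.80), and for IER2 TRAF4 (0.84) and TRIB1 (0.83). The part of cell makeup in these correlations was not tested. ZFP36 was at 219, 386, 115, 75.8 and 65.7 CPM in SIS native and 386, 660, 187, 185 and 338 CPM in SIS regenerated, and HBEGF at 27.6, 48.6, 15.4, 5.32 and 4.82 CPM and at 135, 122, 16.5, 35.9 and 40.0 CPM. As with most members, SIS native 1 and 2 were high within their group for both.

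Of 36 other immediate early genes that were tested, 1 was higher and 4 were lower in ileum than in native bladder of the Entero arm by edgeR, 5 in all, a share near the 15.0% of all tested genes called there. The 4 that fell included IER5L by 1.34 and ZFP36L1 by 0.96 on the log2 scale, and KLF4, a factor of differentiating epithelium, rose by 1.76 (adjusted p = 0.0181). In SIS regenerated against native tissue 0 of 36 passed, 19 had an unadjusted p under 0.05, all higher, beside 3.73% of all genes, and the median log2 fold change was 1.34. DESeq2 called 7 of them, beside 0.343% of genes. DUSP5, a nuclear phosphatase of MAP kinases, gave 2.96 (SE 0.75), MYC 1.93 (SE 0.51) and CSRNP1 2.23 (SE 0.58), with edgeR quasi-likelihood adjusted p = 0.426 for each. Without SIS regenerated 2 the number with an unadjusted p under 0.05 was 10 of 35. In PRS regenerated against native tissue it was 1 of 36, beside 2.50% of genes, with a median of 0.45, DUSP6 at 1.14 (SE 0.41), and DESeq2 called 0. Against the ileum graft 16 of 36 were higher in SIS regenerated tissue, 10 of 35 without SIS regenerated 2, beside 10.9% of all genes. In PRS regenerated tissue 6 of 36 were higher, 7 without PRS regenerated 3, beside 7.21%.

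The second wave that follows the early genes was followed with 16 secondary response and acute cytokine genes. In SIS regenerated against native tissue 0 of 16 passed by edgeR, 13 lay under 0.05 before adjustment (3.73% of all genes were higher at that level) and 6 were called by DESeq2 (0.343%), all higher, with a median log2 fold change of 3.16. That median rested on SIS regenerated 2, where the summed level of the 16 genes was 7200 CPM against 279 to 1061 in the other 4 libraries. Without it 4 of 16 had an unadjusted p under 0.05 and the median was 1.40. In that library PTGS2, the inducible cyclooxygenase, was at 631 CPM, and at 32.2, 4.56, 24.4 and 17.4 CPM in SIS regenerated 1, 3, 4 and 5. LIF, a cytokine of the IL6 family, gave 4.96 (SE 1.07, edgeR quasi-likelihood adjusted p = 0.332) in the SIS arm and 1.32 (SE 1.03) in the PRS arm. In the PRS arm 0 of 16 lay under 0.05 before adjustment, with a median of 0.30 and 0 calls by DESeq2. Against the ileum graft 12 of 16 were higher in SIS regenerated tissue, beside 10.9% of all genes, but 3 without SIS regenerated 2, which is nearer that share, and 0 in PRS regenerated tissue, where 2 lay under 0.05 before adjustment and DESeq2 called 1.

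**Figure D4:**
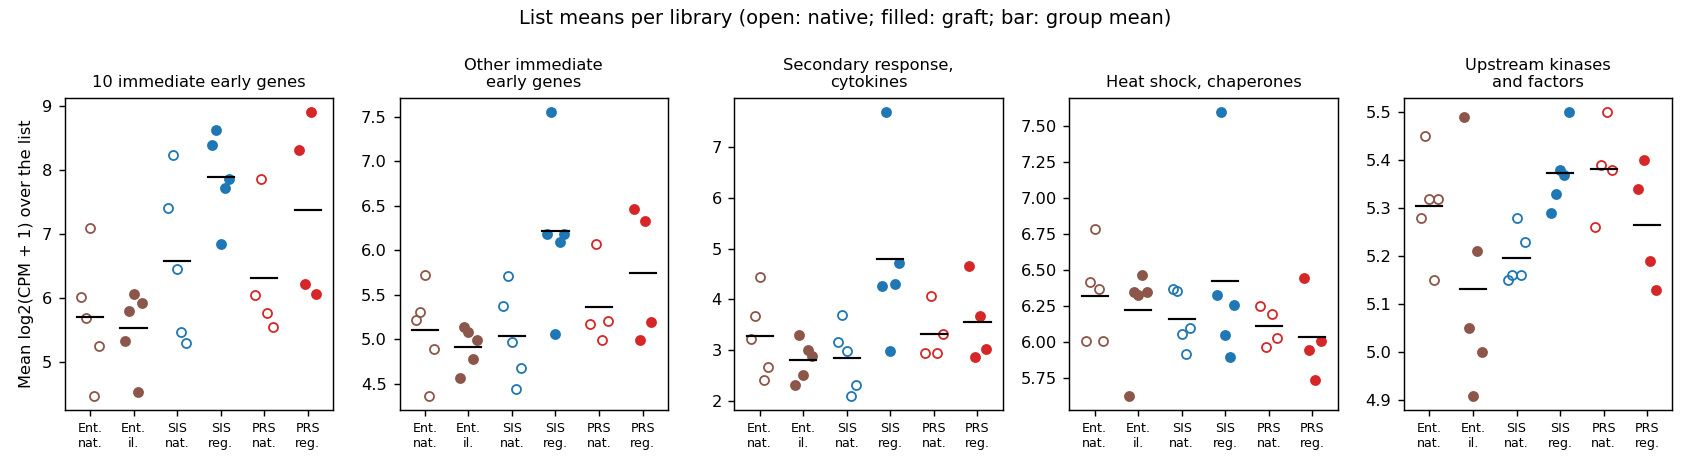
Mean log2(CPM + 1) over each of 5 gene lists in every library (brown Entero, blue SIS, red PRS; open circles native bladder, filled circles graft), with a bar for the group mean; each panel has its own scale. SIS regenerated 2 is the highest point of the SIS regenerated group in the first 4 lists, and the upstream kinase list spans less than 1 log2 unit over all 28 libraries.

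Genes of the machinery that switches the early genes on were looked at next. Of 21 upstream kinases and transcription factors 1 was higher and 3 were lower in ileum than in native bladder, a share near the 15.0% of all genes called there. Among them was MAP2K2, a MAP kinase kinase, which rose by 1.30 (adjusted p = 3.02e-04). In the SIS and PRS graft-against-native comparisons 0 of 21 passed, with 2 and 0 at an unadjusted p under 0.05, medians of 0.22 and -0.11, and 0 called by DESeq2. Of 14 AP-1 partners and related leucine zipper factors 0 passed in either scaffold arm, with 4 and 0 at an unadjusted p under 0.05 and 0 by DESeq2. At that unadjusted level 3.73% of all genes were higher in the SIS graft and 2.50% in the PRS graft. In the Entero arm 2 of 14 rose, which is no more than the 15.0% of all genes called there: BATF2 by 2.14 (adjusted p = 0.00268) and MAF by 2.20 (adjusted p = 0.00198).

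Heat shock and stress chaperones were looked at beside the members. HSPA1A and other listed chaperones were not found in the count table, so the list is partial. Of 11 tested, 0 passed between graft and native bladder in any arm. In the Entero, SIS and PRS arms 2, 3 and 0 had an unadjusted p under 0.05, of which DESeq2 called 1, 1 and 0. Of all genes 28.5% lay under 0.05 before adjustment in the Entero arm. In the SIS and PRS arms 3.73% and 2.50% lay under it and were higher in the graft. Against the ileum graft 2 of 11 were higher in SIS regenerated tissue, beside 10.9% of all genes: DNAJB1 by 1.26 (adjusted p = 0.0107) and BAG3, an HSP70 co-chaperone, by 1.32 (adjusted p = 0.00677). In PRS regenerated tissue 0 were higher and 1 was lower, HMOX1, the inducible heme oxygenase, at -3.60 (adjusted p = 0.0450). Their summed level was 6417 CPM in SIS regenerated 2 and 2894 to 3726 CPM in the other 4 SIS regenerated libraries. Within animals the mean graft minus native difference of the 11 genes was positive in 2 of 5 SIS and 1 of 4 PRS animals. Its medians were -0.01 and -0.02 on the log2 scale. Mean HSPB1 was lower in SIS regenerated than in SIS native, at 884 against 1376 CPM. DNAJB1, the co-chaperone of HSP70, was at 157, 366, 110, 197 and 184 CPM in SIS regenerated and at 113, 165, 89.2, 80.3 and 69.1 CPM in SIS native, and among genes outside the 10 members it ranked second in likeness to both ATF3 (0.82) and NR4A1 (0.83). Entero native 3 held the highest FOS, FOSB, JUN, JUNB, EGR3, ATF3, NR4A1, DUSP1 and IER2 of its group. Its DNAJB1 level was 236 CPM against 90.3 to 107 in the other 4. PRS regenerated 3 had the highest FOS of all libraries, with FOSB at 995, ATF3 at 99.3 and NR4A1 at 574 CPM. Its DNAJB1 level was 159 CPM, between 76.1 and 213 in the rest of its group. Handling of the tissue was not recorded, and the part of handling or of acute stress in these levels was not tested.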

How the data were processed

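Counts of reads per gene were used as the authors deposited them, in 1 table with symbols. The submitters' processing notes name featureCounts 1.5.0-p3, StringTie 1.3.3b and HISAT2 2.0.5. Per the labels' protocols the libraries were poly-A selected, directional (dUTP) and paired-end. The genome build, annotation and strand setting were not given in the sources used here. Coordinates are left out for that reason, and a gene may hold reads of one that overlaps it or lies antisense.

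Genes were filtered with filterByExpr (minimum count 10), scaled by TMM and tested in edgeR 4.0.16 (R 4.3.3) with 1 quasi-likelihood model over 28 libraries in 6 groups, for 12 comparisons, with Benjamini-Hochberg adjustment over 17177 genes at 0.05. SE was derived from the F value, and intervals are at 95%. Log2 levels have a pseudocount of 1. The test was also run on simulated counts, with the spread estimated from these libraries, and the outcome is not given here. Members and lists were chosen with earlier results of these data known. Other named genes were, by rule, the 3 of each list with the smallest p per graft-against-native comparison, the 3 most like each member, and fixed markers; not all are printed, and those shown by library were picked after their values were seen. Alternatives were relative log expression scaling, no filter, DESeq2 1.42.0, the 2 groups alone, the animal as a block and each library left out. Native and graft libraries pair by the animal codes in the labels, and the deviations of the 14 pairs from their group means correlated at -0.30 to 0.71. No 2 libraries were identical (highest r = 0.960).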

Additional observations from a re-analysis of the deposited data

Results flagged for a closer look

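In 2 of 60 sets of 1 gene in 1 group, a library stood apart from its group, with a gap to its nearest neighbour above Dixon's 95% critical value. Chance gives about 1 in 20. Both cases were the native bladder of PRS animal 2. Its FOSB level was 199 CPM, where the other 3 PRS native libraries had 18.4 to 25.6 CPM. Its EGR3 level was 17.7 CPM, where the other 3 had 2.54 to 3.08 CPM.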

How the results depend on the processing

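In the 12 comparisons the count of members called was recomputed under 199 alternatives in all, and 191 counts lay within 1.5 times the original. With each library left out in turn, the count ran from 4 to 7 for SIS regenerated against ileum, from 1 to 6 for PRS regenerated against ileum and from 0 to 1 for the scaffold change minus the Entero change, and stayed at 0 in the other 9. DESeq2 gave 1 in place of 0 for the scaffold change minus the Entero change (FOSB) and 1 in place of 0 for SIS native against Entero native (FOS). A fit with the animal as a replicate block left 0 members called in each of the 6 comparisons within animals; it changed no call of a member. No called value changed sign under any alternative. Of 1990 recomputed log2 fold changes 74 changed sign, all of values that were not called, with a size of at most 1.12 after the change. Across all alternatives 29 single calls were lost and 10 gained, in the comparisons with ileum, the scaffold change minus the Entero change and SIS native against Entero native. Why these counts moved was not tested. The number of animals, 4 or 5 a group, and the spread of these genes set the width of the intervals, and depth was not varied.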
